A study of Mus musculus with 17 samples.

Results

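The genes that encode the proteins of the cytoplasmic ribosome were followed in mouse brain RNA from animals that overexpress HAR1A and from normal animals. A gene was included when its annotated symbol began with Rpl or Rps and it was protein coding. Of 403 annotated genes with such symbols, 307 pseudogenes and noncoding genes and 10 ribosomal protein S6 kinases were left out, which gave 86 members of 41015 genes with deposited counts. All 86 had at least 1 deposited transcript row. Rps19bp1 met the rule by its name only, since it encodes a protein that binds Rps19 and is not part of the ribosome.

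The cytoplasmic ribosome joins a small subunit, which reads the messenger RNA, to a large subunit, which forms the peptide bonds. Their proteins are needed in near equal amounts, and the messengers of most of them start with a run of pyrimidine bases (the terminal oligopyrimidine, or TOP, element) through which the mTOR pathway sets their translation. Neurons also hold ribosomal protein messengers in dendrites and axons, and the spliced forms of Rps24 differ between tissues.

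The 17 libraries came from total brain RNA of mice on the C57BL/6 background, 6 of them labelled transgene and 11 labelled control. The labels give no promoter for the transgene, no brain part, age or sex, and do not say whether each library is a separate animal, so p-values measure only the spread between these libraries. All 6 transgene libraries and controls 7, 8 and 11 were run on lane 4 of a single flow cell. Controls 1, 2, 3, 5, 9 and 10 were on lane 8 and control 4 on lane 2 of the same flow cell, and control 6 was on lane 6 of another. Libraries are numbered in the order of deposition. HAR1A itself was not analysed here, and the labels stand unchecked by its level.

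Assigned counts ranged from 17067407 to 22642441 per library. Neuron markers, as the summed CPM (counts scaled to 1000000 per library) of 6 genes, ran from 5382 to 7358 in transgene libraries, where controls ran from 5456 to 7718. Markers of hindbrain and spinal cord summed to at most 0.41 CPM in transgene libraries and to 14.7 to 244 CPM in controls, and all 6 were called lower. All 6 markers of striatal projection neurons were called higher, with sums of 767 to 2003 CPM against 192 to 489 CPM. Telencephalic neuron markers were all called higher (433 to 654 against 12.6 to 211 CPM) and cerebellar granule cell markers all lower (71.1 to 496 against 129 to 2911 CPM). Of 6 astrocyte markers 4 were called lower, with sums of 1365 to 1583 CPM that did not overlap the 2278 to 2847 CPM of controls. Of 6 oligodendrocyte markers 5 were called lower and 1 higher, with sums of 1034 to 2317 against 1262 to 5115 CPM. Oligodendrocyte markers were highest in control 7, at 5115 CPM, and red cell markers in controls 6 and 11, at 5217 and 4579 CPM. In bulk tissue, fewer cells of a type and less RNA per cell cannot be told apart, and the part of these differences in the results below was not tested.

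The sequences around the start sites of a few members are shown because the run of pyrimidines (C or T) near the start is the feature the family is known for. Each line gives 10 bases before and 15 bases from the annotated start, with the longest run in capitals, from RefSeq on GRCm38.p6.
Rps6, chr4:86857353-86857377, minus strand: gaagtcgggCCTCTTTTTCgtgacg
Rps21, chr2:180257369-180257393, plus strand: aggacccgCCCTCCTgcccaatagt
Rpl31, chr1:39367841-39367865, plus strand: tcctcgCCTCCCCgtgacccggaag
Rpl12, chr2:32961702-32961726, plus strand: agcaggatccgTCTTTTCggctttc
Rps24, chr14:24490668-24490692, plus strand: gctggggTCCTTCCTTgcgcgttga
Rpl24, chr16:55966265-55966289, plus strand: gCTgttgctaggaaacagactgggc
Rpl24 is shown as a member called within lane 4 whose longest run in this window is 2 bases. A start could be read for 66 of the 86 members. A run of at least 7 pyrimidines on the sense strand within 10 bases of the first listed start was present in 25 of them (37.9%) and in 12.2% of 27025 genes. A C at the start followed by 4 pyrimidines was present in 13 members (19.7%) and in 2.49% of all genes. Such a match describes these letters only.

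Levels differed with the number of deposited rows of a member. Each deposited file gives counts per transcript row, and a read that fits several rows was set aside by the counting as ambiguous. The 40 members with 1 row had a median of 293 CPM over the libraries (0 to 773), and the 46 members with several rows had a median of 13.3 CPM (0 to 308). Per kilobase of a member's most counted row, the medians were 330 and 17.5 CPM. The share of ambiguous reads was 42.1% ± 0.84 in transgene libraries and 41.1% ± 0.81 in controls (exact two-sided permutation p = 0.0429, 0.0992 adjusted over 4 tests of read classes), and p was 0.214 within lane 4. Among members with several rows, Spearman's rho between the number of bases that their rows do not share and CPM was 0.16. The part of reads set aside in the level of a member was not tested, so changes are given below only between libraries. The highest levels per length belonged to Rplp1, a protein of the large subunit's stalk, at 1051 CPM per kilobase, Rps21 of the small subunit at 854 CPM per kilobase, and Rpl13 of the large subunit at 688 CPM per kilobase.

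Several paralogues of common ribosomal proteins were near or at 0. Rpl10l, known from the testis, and Rpl39l had 0 counts in all 17 libraries, where 3 counts would be 0.00877 CPM. Rpl3l, the paralogue of heart and skeletal muscle, had 107 counts in all, with 0.106 to 0.439 CPM in transgene libraries and 0.103 to 0.523 CPM in controls. Rps27l had 152 counts in all, from 2 rows with only 5 and 81 bases that no other row covers. Rpl22 had 150 counts, but its 3 rows hold 14, 1 and 0 bases that no other row covers. These 5 members did not pass the filter on low counts, which left 81 tested in both comparisons with the transgene. Among paralogues that were tested, Rpl22l1 stood at 9.24 ± 0.60 CPM in transgene libraries (SD, n = 6) and at 9.68 ± 1.42 CPM in controls (n = 11), and Rpl36al 14.1 ± 1.82 and 14.4 ± 2.16 CPM. The lowest tested paralogue, Rps27rt, had 0.905 ± 0.447 and 0.681 ± 0.267 CPM. None of these 3 was called over all libraries (adjusted p = 0.612, 0.838 and 0.263 by edgeR's quasi-likelihood test).

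Most ribosomal protein genes were not called different between transgene and control brains. Over all libraries 11 members were called higher and 2 lower, 16.05% of the 81 tested, where 47.4% of 19136 tested features were called (23% higher and 24.4% lower). Calls used edgeR's quasi-likelihood test with a Benjamini-Hochberg adjusted p under 0.05 over all features. The median log2 fold change of the members was 0.09 and that of all features was -0.05, but scaling by library size alone moved these to -0.03 and -0.16. For 72 of the 81 members the 95% interval of the fold change lay within 1.5-fold either way, which held for 7454 of the 19136 features. The features were not matched to the members by level. In 2 members, Rpl31 and Rpl12, no transgene library overlapped a control (2.47% of the members), which held for 14.9% of all features. The large subunit gave 6 higher and 1 lower of 48, and the small subunit 4 higher and 1 lower of 32.

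The acidic stalk protein gene Rplp1 (mm10 chromosome 9, 61913284 to 61914542) lay between 574 and 650 CPM with a median of 618 CPM in the transgene libraries, and between 392 and 609 CPM with a median of 474 CPM in the controls. Apart from control 7, at 609 CPM, every control was below every transgene library. Its log2 fold change was 0.38 ± 0.08 (SE, adjusted p = 0.000780). Rpl12 (chromosome 2, 32961559 to 32965345), whose protein sits at the base of the same stalk, had 298 to 343 CPM with a median of 329.7 CPM in transgene libraries and 209 to 297 CPM with a median of 240.7 CPM in controls. The groups did not overlap, and the log2 fold change was 0.39 ± 0.07 (adjusted p = 0.000153).

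Rpl31 (chromosome 1, 39367842 to 39371911), a protein near the exit of the peptide tunnel, had 19.4 to 22.9 CPM with a median of 20.1 CPM in transgene libraries and 12.3 to 16.9 CPM with a median of 14.5 CPM in controls. Every transgene library was above every control, and the log2 fold change was 0.51 ± 0.07 (adjusted p = 1.9e-05). Rpl29, a large subunit protein, had the highest fold change, 0.57 ± 0.13, at 8.14 ± 0.98 and 5.49 ± 1.17 CPM. In the small subunit Rps19, the gene mutated most often in Diamond-Blackfan anaemia, had 7.32 ± 1.78 and 5.37 ± 0.78 CPM with a log2 fold change of 0.45 ± 0.13, and Rps21 had 388 ± 40.3 and 308 ± 54.9 CPM with 0.33 ± 0.11. Rps12 followed with 0.39 ± 0.15. Rpl13 rose by 0.21, Rps23 by 0.19 and Rpl5, a carrier of the 5S ribosomal RNA, by 0.18. Rps19bp1 rose by 0.25 ± 0.07, from 30.2 ± 2.90 to 35.9 ± 1.83 CPM.

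The members called lower were Rps24, described below, and Rpl7l1, a paralogue with a role in building the large subunit, which had 77.4 ± 2.99 CPM in transgene libraries and 86.0 ± 7.07 CPM in controls. The log2 fold change of Rpl7l1 was -0.15 ± 0.06 (adjusted p = 0.0429), and it was not called under 16 of 26 alternatives. Rps12 (adjusted p = 0.0394) was not called under 11 of 25. With lane as a factor, Rpl12, Rpl31, Rps19 and Rps19bp1 were called higher and 7 members lower, and without control 7 the count of members called higher was 23.

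Within lane 4, where lane is shared, 1 member was called higher and 3 were called lower, 4.94% of 81, against 25.6% of 19261 features (13.6% higher and 12% lower). This comparison uses the same transgene libraries as the first, so its values are given side by side and not as a second test. The median log2 fold change was -0.09 for the members and -0.04 for all features, and both were negative under every scaling tried. Of the 11 members whose groups did not overlap (13.6%, against 25.3% of all features), 10 were lower in transgene libraries. Rpl31 had 13.6, 14.6 and 16.9 CPM in the 3 controls of the lane, all below the transgene libraries, with a log2 fold change of 0.43 ± 0.11 (adjusted p = 0.0182). That call was lost without control 11 (adjusted p = 0.0832). Rpl12, at 264.8, 265 and 297 CPM in those controls, lay below the transgene libraries but overlapped them on CPM scaled within the lane. It was not called (0.22 ± 0.09, adjusted p = 0.0819). Rplp1 had 494, 538 and 609 CPM there and a log2 fold change of 0.15 ± 0.10 (adjusted p = 0.269).

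Rps6 and Rpl24 were called lower within lane 4, and over all libraries only under some alternatives. When lane and flow cell entered the fit over all libraries, both were called lower (-0.31, adjusted p = 0.0131, and -0.29, adjusted p = 0.0242), and with scaling by library size alone so was Rps6 (-0.25, adjusted p = 0.00417). Rps6, the small subunit protein phosphorylated by the S6 kinases, had 407 to 467 CPM with a median of 429 CPM in the transgene libraries. The lane 4 controls had 468, 544 and 595 CPM, all above them, and the log2 fold change was -0.32 ± 0.10 (adjusted p = 0.0306). Over all libraries it was -0.14 ± 0.07 (adjusted p = 0.116). Rpl24 had 79.2 to 91.0 CPM in transgene and 93.8, 101.5 and 118 CPM in the lane 4 controls, with -0.30 ± 0.09 (adjusted p = 0.0333). Without control 7, which had the highest level of both genes on the lane, neither was called (adjusted p = 0.109 and 0.130). Of 17 alternatives within the lane the call of Rps6 was lost under 7 and that of Rpl24 under 8, among them no filter on low counts and the omission of control 11 or of transgene 2, 3 or 4.

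**Figure D1:**
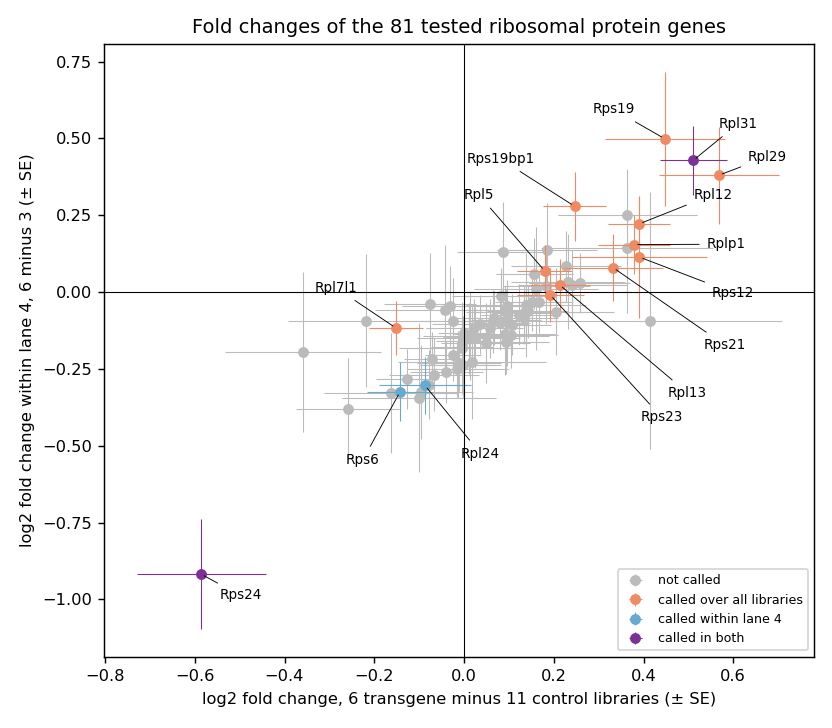
Log2 fold change of each of the 81 tested members over all libraries (horizontal axis, 6 transgene minus 11 control) and within lane 4 (vertical axis, 6 minus 3), with standard errors as bars and calls at an adjusted p under 0.05 in colour. Both axes use the same 6 transgene libraries; Rpl31 and Rps24 are the members called in both.

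**Figure D2:**
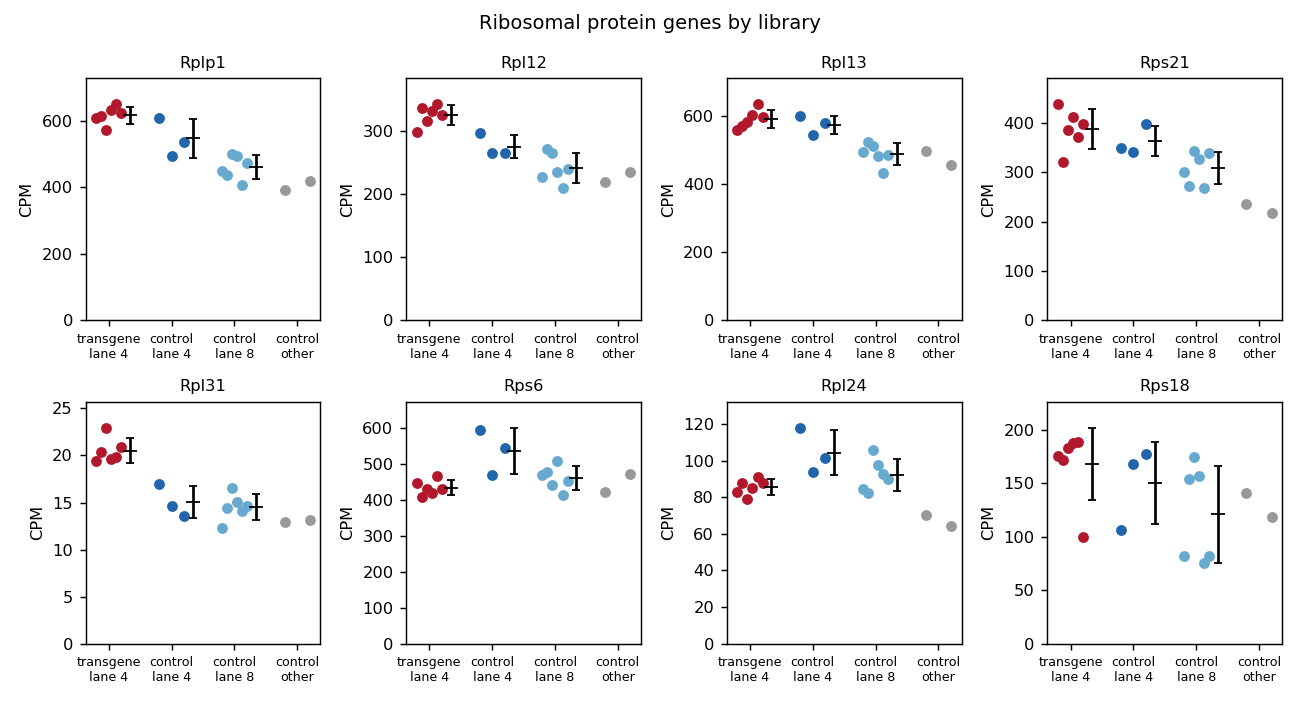
CPM of 8 members in each library, grouped by label and lane, with the mean and SD beside groups of 3 or more. Rpl31 and Rpl12 lie above every control in the transgene libraries, Rps6 and Rpl24 lie below the lane 4 controls, and Rps18 shows a transgene library at 99.995 CPM apart from the other 5.

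Between controls of lane 8 and of lane 4, none of the 83 members tested was called (0 of 19384 features by edgeR, 1 by DESeq2 and 0 by limma-voom). At an unadjusted p under 0.05 edgeR gave 15 members and 1543 features. Of the 83 members 73 were lower on lane 8, with a median log2 fold change of -0.17 where that of all features was 0.00. The members are not independent of each other, since their levels varied together between libraries, as given below. In 8 members (9.64%, against 2.62% of all features) the lanes did not overlap on CPM scaled within these libraries. All 8 were lower on lane 8: Rpl13, Rpl14, Rpl35, Rpl8, Rplp0, Rplp2, Rps21 and Rps3. On CPM scaled over all libraries Rplp2 and Rps21 overlapped, at 94.3 and 343 CPM in control 3 and 92.0 and 341 CPM in control 8. Of the 11 members called higher over all libraries, 9 were lower on lane 8 than on lane 4 among controls. Rplp1 had a log2 fold change of -0.24, Rpl12 of -0.18 and Rpl13 of -0.23 between the lanes, and Rpl31 of -0.04.

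Over all libraries the family as a whole took a like share of the reads in both groups, but within lane 4 its mean share was lower in transgene libraries. Members held 1.42% ± 0.076 of assigned counts in transgene (n = 6) and 1.43% ± 0.12 in control libraries (n = 11), a difference smaller than the spread within either group. Lane 4 controls had 1.57% ± 0.098 (n = 3) and lane 8 controls 1.41% ± 0.063 (n = 6). Controls 7 and 11 of lane 4, both at 1.63%, lay above every transgene library, the highest of which had 1.51%. Control 8 of lane 4, at 1.46%, lay within the ranges of the transgene libraries and of the lane 8 controls. The difference within lane 4 was not tested. The ratio of large to small subunit counts was 2.03 ± 0.051 and 2.04 ± 0.054.

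Most members varied together between libraries, as the correlations below give. As the median deviation of log2 CPM from the control mean, control 7 stood highest at 0.30, control 11 and transgene 5 stood at 0.15, while control 6 was lowest at -0.26 and controls 4 and 9 both stood at -0.14. Transgene libraries lay between -0.01 and 0.15, and within the range of the controls. Control 7, the highest, also had the highest oligodendrocyte markers and, at 129 CPM, the lowest granule cell markers among controls. Controls 6 and 11 both had high red cell markers and stood on opposite sides of 0.

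**Figure D3:**
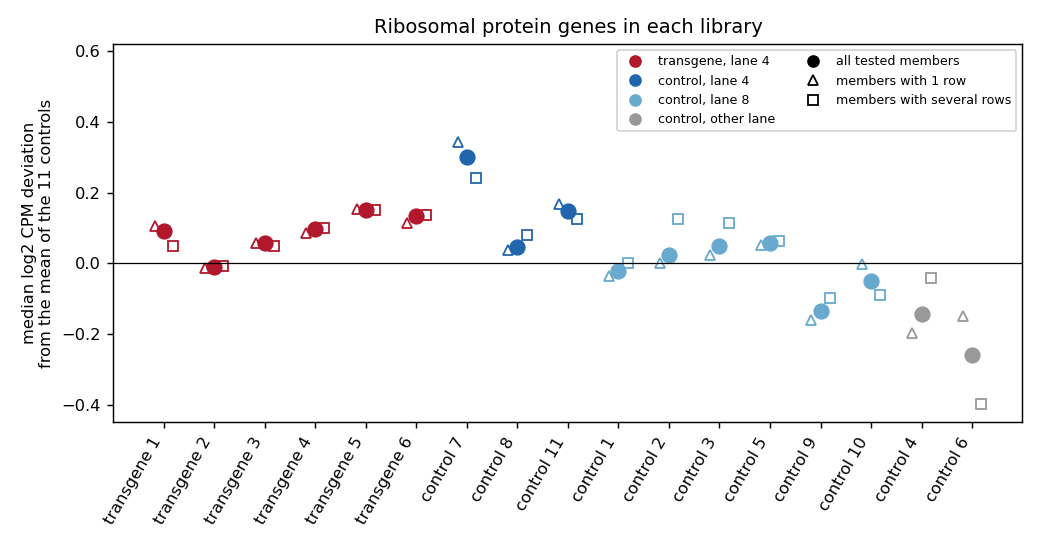
Median deviation of member log2 CPM from the mean of the 11 controls in each library (filled circles), with members of 1 row (triangles) and of several rows (squares) apart. The controls run from -0.26 in control 6 to 0.30 in control 7, and the 6 transgene libraries fall inside that range.

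The median within-group SD of log2 CPM was 0.194 over the members and 0.314 over all tested features, but at a mean log2 CPM of at least 5 the values were 0.162 for 55 members and 0.167 for 5142 features. Spearman's rho between pairs of members, over within-group deviations in the 17 libraries, had a median of 0.35, and 0.54 among the 55 higher members, where pairs of all tested features had a median of 0.0025, and 0.047 at a mean log2 CPM of at least 5. These points share library scaling and depth. Of the 81 members, 55 (67.9%) had a rho over 0.5 with the median of the others, where 5.49% of 19055 other tested features had one with the median of the members, and 5 had one below 0, among them Rpl7l1 (-0.22) and Rps19bp1 (-0.21). The most variable members were Rps27rt, Rps18, Rpl38 and Rps10, with within-group SDs of 0.53, 0.44, 0.36 and 0.34.

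Rps24, a small subunit protein mutated in some families with Diamond-Blackfan anaemia, showed the largest change of the family in either direction (mm10 chromosome 14, 24487125 to 24496959). It had 20.8 to 28.1 CPM with a median of 23.5 CPM in transgene libraries and 27.2 to 61.4 CPM with a median of 33.9 CPM in controls. Only the highest transgene library was above the lowest control. Its log2 fold change was -0.59 ± 0.14 over all libraries (adjusted p = 0.00245) and -0.92 ± 0.18 within lane 4 (adjusted p = 0.00391), where the controls had 34.02, 37.6 and 61.4 CPM. It was called lower in both comparisons under every alternative that was run, but within lane 4 the size rested on control 7, without which it was -0.60 (adjusted p = 0.00914).

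The deposited rows of Rps24 separate its spliced forms only in part. Row Rps24-205 is told apart from the others only by an exon of 18 bases at chr14:24494052-24494069 on the plus strand. Its 3 first bases are coding and are followed by the stop codon and 3′ untranslated sequence, so the exon sets the end of the protein. All other bases of that row lie in row Rps24-202, so a read given to Rps24-205 must touch the exon if reads were assigned by the bases they cover. Row Rps24-202 itself has 0 bases of its own, and its 7 counts over the 17 libraries are too few to measure the form without the exon. The joined sequence is shown with 6 bases on either side and the exon in capitals, beside the form without it, from GENCODE M21 transcripts.
Rps24-205: aaaaagAAATGAAATACCTAGCAGtgagtg
Rps24-202: aaaaagtgagtg

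Of the Rps24 rows tested, only the row with this exon was called lower. Rps24-205 had 11.7 to 19.8 CPM with a median of 15.3 CPM in transgene libraries and 19.4 to 51.5 CPM with a median of 26.1 CPM in controls, so the groups touched at a single library on each side. When every transcript row was tested as a feature of its own, an alternative added after the data were seen, its log2 fold change was -0.81 ± 0.17 (adjusted p = 0.000772) and within lane 4 -1.20 ± 0.22 (adjusted p = 0.00302). In the same fit over all libraries Rps24-207, which has another first exon, rose by 0.51 ± 0.15, from 2.94 ± 0.65 to 4.13 ± 0.70 CPM (adjusted p = 0.00844). Within lane 4 its log2 fold change was 0.12 ± 0.20 (adjusted p = 0.725). Rps24-210, which ends in a long last exon, stood at 2.33 ± 0.42 and 2.79 ± 0.74 CPM (adjusted p = 0.319). Within lane 4, Rps24-210 and Rps24-201 had log2 fold changes of -0.45 ± 0.20 and -0.36 ± 0.28 (adjusted p = 0.127 and 0.395).

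As a share of all Rps24 counts, the row with the 18-base exon held 56.4% to 71.5% in the transgene libraries, with 351 to 529 Rps24 counts behind each, and 70.3% to 84.1% in the controls, with 529 to 1320. The means were 65.6% ± 5.3 (n = 6) and 78.2% ± 4.0 (n = 11), and an exact two-sided permutation test of this difference gave p = 0.000162 (0.000970 adjusted over 6 tests of Rps24). Within lane 4 the controls had 75.0%, 77.5% and 84.1%, all above the transgene libraries (exact permutation p = 0.0119, the smallest that 84 splits allow, 0.0357 adjusted). Control lanes 8 and 4 had 77.8% ± 4.7 and 78.9% ± 4.7 (exact permutation p = 0.774). The ratio to row Rps24-210 alone was 6.97 ± 1.92 in transgene and 10.6 ± 3.36 in control libraries (exact permutation p = 0.0293, 0.0439 adjusted). This exon was chosen after its values were seen. The share does not set the form with the exon against the form without it, whose row has no base of its own.

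**Figure D4:**
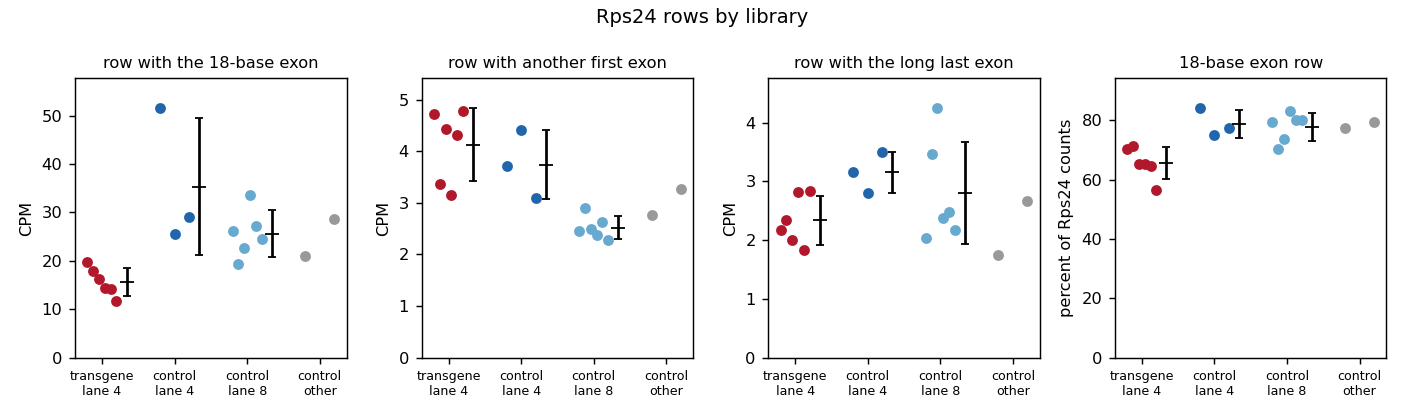
CPM of the Rps24 rows with the 18-base exon, with another first exon and with the long last exon, and the share of Rps24 counts in the first of these, in each library by label and lane, with mean and SD for groups of 3 or more. The share runs from 56.4% to 71.5% in transgene and from 70.3% to 84.1% in control libraries.

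Among rows of members that differ from the main form by intronic sequence, some rose and none fell over all libraries. Tested row by row over all libraries, 28 of 129 member rows were called higher and 2 lower (Rps24-205 and Rps9-204), where 44.8% of 23353 rows were called. A row was classed as intronic when at least 80% of the bases it shares with no other row of its gene lie inside introns of the gene's most counted row. Of 29 such member rows 11 rose and 0 fell (37.9% and 0%), and of 2343 such rows of all protein-coding genes 18.7% rose and 17.8% fell. Among the most counted rows of members with several rows, 6 of 42 were called higher and 2 lower (14.3% and 4.76%). Of 7447 most counted rows of all protein-coding genes with several rows, 25.1% rose and 20.8% fell. Rows of Rpl13a, Rpl21, Rpl28, Rpl31, Rpl32, Rplp2, Rps14, Rps24 and Rpsa were among the 11. This class was defined after the row values were seen.

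Rpl21-203 rose by 1.04 ± 0.13 on the log2 scale, from 4.11 ± 0.79 CPM in control to 8.26 ± 1.37 CPM in transgene libraries (adjusted p = 3.8e-06), while the main row Rpl21-201 had 138 ± 29.2 and 157 ± 17.3 CPM (adjusted p = 0.146). The 174 bases of its own are at chr5:146833567-146833740. Rpl31-203, whose own 142 bases are at chr1:39368007-39368148, rose by 0.85 ± 0.09, from 5.09 ± 0.51 to 9.00 ± 0.85 CPM (adjusted p = 6.4e-07), and the main row Rpl31-201 by 0.35 ± 0.10, from 8.75 ± 1.21 to 10.95 ± 0.97 CPM (adjusted p = 0.00575). Rpl28-202 rose by 0.54 ± 0.14, from 13.9 ± 3.29 to 19.8 ± 2.53 CPM, and Rpl28-201 had 58.6 ± 10.4 and 53.8 ± 5.29 CPM (adjusted p = 0.552). Within lane 4, where 23.9% of 23511 rows were called, 4 member rows were higher and 4 lower. The higher ones were Rpl21-203 (0.82), Rpl28-202 (0.45), Rpl31-203 (0.70) and Rps12-208, all classed as intronic. They made up 13.3% of the 30 intronic member rows tested, of which 0% were lower. Of 2346 intronic rows of all genes 10.7% were higher and 7.42% lower, so the member share of rises was close to that of all genes. Rps12-208 rested on 8 to 22 counts in each transgene library and on 3 to 6 in each lane 4 control. Over all libraries Rps12-208 did not pass the filter on low counts. The main row Rpl31-201 had a log2 fold change of 0.25 ± 0.14 within the lane (adjusted p = 0.240). The lower ones were Rps24-205, Rps9-204, Rps6-201 and Rpl24-201. Reads outside any feature made up 7.44% ± 1.43 in transgene and 8.98% ± 1.41 in control libraries (exact permutation p = 0.0496, 0.0992 adjusted over 4 tests of read classes).

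**Figure D5:**
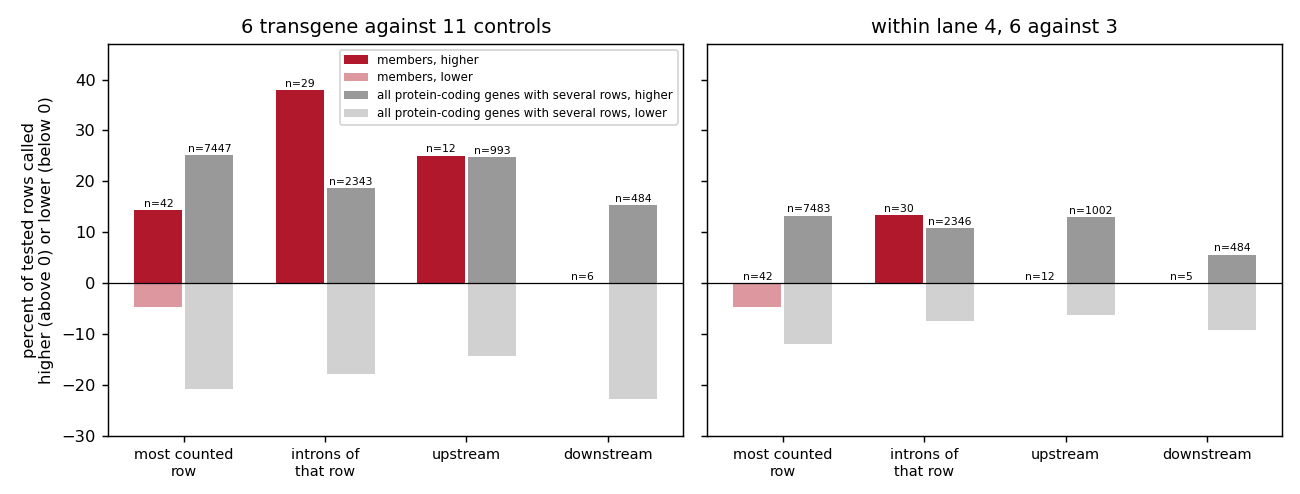
Percent of tested transcript rows called higher (bars above 0) or lower (bars below 0), by where the bases of a row's own lie relative to the gene's most counted row, for members and for all protein-coding genes with several rows, over all libraries and within lane 4. Over all libraries 37.9% of intronic member rows and 18.7% of intronic rows of all genes were higher, and within lane 4 13.3% and 10.7%. The number of rows tested stands above each bar.

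Other genes of translation and of energy metabolism changed in both directions over all libraries, where 47.4% of all features were called. Fau and Rack1, which encode ribosomal proteins under other names, were not called (adjusted p = 0.112 and 0.658). Initiation factors gave 6 higher and 2 lower of 28, with the helicase gene Eif4a1 at 426 and 331 CPM (log2 fold change 0.36) and the cap-binding protein gene Eif4e at 93.9 and 82.6 CPM (0.19) among those that rose. Of 7 elongation factor genes Eef1a1 rose by 0.43, and Eef1d and Eef2 fell by 0.31 and 0.21. Ribosome biogenesis genes gave 7 higher and 4 lower of 31, among them Nhp2, a protein of H/ACA ribonucleoproteins, at 73.7 and 44.2 CPM (0.74), Nip7 (0.55) and Tsr1 (0.52), and 5 were higher and 1 lower within lane 4. Mitochondrial ribosomal protein genes gave 7 higher and 15 lower of 76, and 2 higher and 6 lower within lane 4. Nuclear genes of the respiratory chain gave 1 higher and 8 lower of 27, with Ndufb2 at 23.0 and 38.2 CPM (-0.73), and 0 higher and 10 lower within lane 4. Of 12 regulators of TOP translation 5 were higher, Eif4ebp1, a brake on cap-dependent initiation, among them at 7.32 and 4.36 CPM (0.75), and 2 were lower. Of 7 other TOP messengers Nap1l1 (0.75) and Pabpc1 (0.32) rose, and the median log2 fold change of the 7 was -0.09. Small nucleolar RNA hosts gave 1 higher and 1 lower of 7, and mitochondrially encoded genes 0 of 13. Within lane 4, where 25.6% of all features were called, initiation factors gave 1 higher and 0 lower of 28, regulators of TOP translation 2 and 0 of 12, elongation factors 1 and 1 of 7, other TOP messengers 1 and 1 of 7, and small nucleolar RNA hosts 0 of 7.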

How the data were processed

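The authors deposited raw counts per transcript, 68517 rows for each of 17 mouse brain libraries, on the mm10 build according to the submitters' processing notes. Neither aligner nor counter, nor its strand setting, is given in the sources used here. Left out were 5 closing rows that name no feature. Reads on several features were 41.5% ± 0.92 (SD, n = 17) of all reads listed, and 8.44% ± 1.57 lay outside any feature. Without a known strand setting, reads of overlapping genes, which 50 of 86 members have, cannot be told apart. Pseudogenes named after them exist for 60 members, and how reads shared with such copies were placed is not stated, so those levels are uncertain.

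Of 64505 Ensembl rows 64380 were matched to GENCODE M21 (same assembly as mm10) and summed to 41015 genes; 4007 assembled rows and unmatched rows stayed as features, 45147 in all. All features were fitted together in R 4.3.3 by edgeR 4.0.16, using TMM scaling, its default expression filter and the quasi-likelihood F test, and p-values were adjusted by Benjamini-Hochberg (threshold 0.05). CPM values are TMM-scaled over all libraries. Overlap between groups was judged on CPM scaled within the libraries of each comparison. The SE of a fold change was derived from the F statistic. Fold changes and p-values of rows come from a fit of rows. CPM of rows use the scaling factors of the fit of genes over all assigned counts, and differ slightly from those of genes. Own bases of a row are exon bases that no other deposited row covers on its strand. Rows Rps28-205 and Rpl38-201 have 0 such bases but held 30887 and 1119 counts. Own bases therefore do not fully settle which rows could be counted. Transgene was compared with control over all libraries and within lane 4, and, among controls, lane 8 with lane 4. DESeq2 1.42.0 and limma-voom 3.58.1 were among the alternatives. The procedure was tested on simulated counts. Members, lists, named genes and the exon and intron questions were chosen with earlier results of these data known. Named were the 8 largest calls each way, the 3 largest within lane 4, members without overlap, extremes of level and spread, and paralogues; Rpl13, Rps23, Rpl5 and the examples from other lists were added to account for counts. Floors cover counting error only, while intervals and SEs of fold changes include the spread between libraries. Some genes that the rule for named genes would take in are not reported here by name.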

Additional observations from a re-analysis of the deposited data

Results flagged for a closer look

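Among 50 groups of 4 to 10 values, 4 had a library far from the others by Dixon's criterion at the 95% level, and chance gives about 1 in 20. Rps18 was at 99.995 CPM in transgene 6, where the nearest of the other transgene libraries was at 172 CPM. Rps12 was at 7.98 CPM in control 3, above the next lane 8 control at 6.07 CPM. Rpl22l1 was at 11.5 CPM in control 5, above the next lane 8 control at 9.69 CPM. Rpl3l was at 0.106 CPM in transgene 3, below the next transgene library at 0.319 CPM, at levels of a few counts.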

How the results depend on the processing

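Over all libraries 11 members were called higher and 2 lower. When lane and flow cell entered as a factor, 4 were higher and 7 lower, and the median log2 fold change of members moved from 0.087 to -0.074. With library size alone 5 were higher and 8 lower, and the median was -0.025. Without control 7 and transgene 3 together 23 were higher and 1 lower, members with 1 row gave 7 and 1, and rows tested as features gave 23 members with a higher row. DESeq2, its size factors and no filter each gave 1 lower. Leaving out a library gave 9 to 23 higher (23 without control 7) and 1 to 3 lower, 1 without any of controls 1, 2, 4, 8 and 10 or transgene 1, 2, 3, 4 and 6. The median ranged from 0.06 to 0.13.

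Within lane 4, 1 member was called higher and 3 lower. DESeq2 gave 2 higher, members with 1 row 0 and rows as features 4. Lower counts were 14 with library size alone, 1 with no filter and 1 without control 7 and transgene 3. Leaving out a library gave 0 to 2 higher (0 without control 11) and 1 to 8 lower, 8 without control 8 and 1 without control 7 or transgene 2, 3 or 4, and the median ranged from -0.14 to -0.02. Among controls by lane, 0 members were called under each setting and tool run, and the median ranged from -0.23 to -0.12. Over all libraries the member share of counts differed by -0.03 to 0.01 percentage points as libraries were left out. The share of Rps24 counts in the row with the 18-base exon differed by -13.8 to -10.7 percentage points. The cause of these changes was not tested. No paired analysis was possible because the labels give no replicate numbers that the groups share. Members with few unshared bases are limited by depth: the 18-base exon rests on 198 to 1110 counts a library.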

Other observations

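Rps18 ran from 75.5 to 189 CPM across the libraries. Controls 1, 9 and 10 had 81.9, 75.5 and 82.1 CPM, transgene 6 had 99.995 CPM, controls 7 and 6 had 106 and 119 CPM, and the other 11 libraries lay between 141 and 189 CPM. All of its 48939 counts stand in row Rps18-201, in which 33 bases are shared with no other row. Rps14, whose counts lie mostly in row Rps14-201, was also low in controls 1, 9 and 10, at 99.3, 96.7 and 98.6 CPM, but transgene 6 had 163 CPM, within the transgene range of 143 to 225 CPM. Of 80 other members Rpl21, Rpl29 and Rps14 followed Rps18 most closely over the 17 libraries, with Spearman's rho of 0.83, 0.82 and 0.76. These points share library scaling, and the genes were singled out after their values were seen.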
